A study of Mus musculus with 39 samples.

Results

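The 10 genes described here, Nqo1, Gclc, Gclm, Gsr, Gpx1, Srxn1, Txnrd1, Prdx1, Hmox1 and Cat, are antioxidant defence genes of the NRF2 pathway, and they were chosen by name, as the genes to whose RefSeq transcripts a probe of the array is assigned. All 10 were on the array, with 14 probes among them, out of 17016 genes. Gsr and Srxn1 had 3 probes each and the other genes 1. In build GRCm38.p6 the genes lie on chromosome 8 (Nqo1, chr8:107388225-107403205; Gsr, chr8:33653238-33698162; Hmox1, chr8:75093618-75100593), chromosome 9 (Gclc, chr9:77754535-77794489; Gpx1, chr9:108339080-108340342), chromosome 2 (Srxn1, chr2:152105524-152111376; Cat, chr2:103453904-103485153), chromosome 3 (Gclm, chr3:122245487-122267215), chromosome 4 (Prdx1, chr4:116685599-116700000) and chromosome 10 (Txnrd1, chr10:82833951-82897724). Each gene is given by its probe with the highest mean liver signal, and the other probes of Gsr and Srxn1 are given beside it.

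Livers came from 39 male C57BL/6J mice, bought at an age of 5 to 6 weeks and singly housed. Aggressor-exposed mice (AggE) were kept in a small cage inside that of a trained SJL aggressor mouse in daily sessions of 6 hrs, on 5 or 10 days in a row, with up to 3 short attacks per session and neither food nor drink. Control mice (Ctrl) went through the same hours of confinement, also without food, in a separate room with no aggressor. Tissue was taken 24 hrs after the 5-day stressor (24 hrs-5d, 4 Ctrl and 5 AggE mice), 24 hrs after the 10-day stressor (24 hrs-10d, 4 and 5), 1.5 wks after the 5-day stressor (1.5 wks, 4 and 5) and, following the 10-day stressor, at 4 wks (6 and 6), shortly after a partition test that presented a cue of the aggressor. Each array holds the liver of a separate mouse. At 1.5 wks the sample titles of the 5 AggE mice, and that of Ctrl mouse 4, carry a code with 10 in place of 5, whereas their source labels and descriptions give 5 days, and the source labels were followed. Whole liver was used, so that fewer cells of a type and less RNA per cell cannot be told apart. Each liver RNA, labeled with Cy-5, was hybridized with a Universal Mouse Reference RNA, labeled with Cy-3, and a level is the log2 ratio of liver over reference. Levels of different genes cannot be compared, because each is relative to the same gene in the reference.

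NRF2, encoded by Nfe2l2, is a transcription factor that KEAP1 holds for degradation under resting conditions. Oxidants and electrophiles modify KEAP1, NRF2 then accumulates, and with small MAF proteins it binds antioxidant response elements near genes for glutathione synthesis, the thioredoxin system and detoxification. The liver, which makes most of the body's glutathione, is a main site of this response. Of the 10 genes, Gclc and Gclm make the enzyme that commits glutamate and cysteine to glutathione, Gsr recycles oxidized glutathione, and Gpx1, Prdx1 and Cat remove peroxides. Txnrd1 keeps thioredoxin reduced, Srxn1 repairs overoxidized peroxiredoxins, Nqo1 reduces quinones and Hmox1 degrades heme. Cat and Gpx1 are also under much control by other factors.

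The core of the antioxidant response element, TGACNNNGC, was searched on both strands of the RefSeq promoter windows of build GRCm38.p6, each from 250 bases before to 50 bases after a start site. Windows were found for 7 of the 10 genes, 9 windows in all, and 4 of them, of 4 genes, held the core. Of all 32851 windows 12.4% held it. The 4 stretches are shown because they hold the pathway's motif in these genes, and they read 5′ to 3′ on the strand of the gene, with the core, which lies on the opposite strand in each, in capitals.
Gclm, chr3:122245413-122245441, plus strand: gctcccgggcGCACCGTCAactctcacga
Srxn1, chr2:152105542-152105570, plus strand: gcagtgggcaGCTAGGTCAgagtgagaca
Txnrd1, chr10:82859104-82859132, plus strand: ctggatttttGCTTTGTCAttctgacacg
Prdx1, chr4:116685456-116685484, plus strand: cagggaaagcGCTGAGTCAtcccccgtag
The first capital as printed lay 134 bases before the start site of its window in Gclm, 92 in Txnrd1 and 133 in Prdx1, and 28 bases after it in Srxn1. The match of Txnrd1 was in its window chr10:82858956-82859255. Its windows chr10:82833701-82834000 and chr10:82860091-82860390 held no core. A match is a description of letters, and a window without one says only that these letters are not in it.

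The arrays lay on 11 slides and were scanned on 2 days. At both 24 hrs time points AggE and Ctrl arrays shared no slide, so that slide and group cannot be told apart there. At 1.5 wks slide 7 held 1 AggE and 3 Ctrl mice, and at 4 wks slide 9 held 1 AggE and 3 Ctrl mice. The share of probes well above background in Cy-5, by the mark of Feature Extraction, ranged from 14.8% to 70.1% per array, and its group medians were lowest after the 5-day regimen (21.9% to 29.4%, beside 38% to 52.8% after the 10-day regimen). Within groups the median correlation of an array with the others ranged from 0.89 to 0.97, and the lowest belonged to AggE mouse 1 at 4 wks. Of the 6 measured hepatocyte markers all 6 were well above background on every array, whereas in the 24 hrs groups 7 of 8 neutrophil markers were so on none.

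None of the 10 genes passed the test between AggE and Ctrl mice at any of the 4 time points after adjustment (0 of 10 in each, limma's moderated test with Benjamini-Hochberg adjusted p-values of 0.05 or less). The smallest adjusted p was 0.343 at 24 hrs-5d, 1.00 at 24 hrs-10d, 1.00 at 1.5 wks and 0.0688 at 4 wks. Of all genes, 1.6% were called higher and 1.48% lower at 24 hrs-5d, 0.0882% and 0.00588% at 24 hrs-10d, 0% and 0% at 1.5 wks, and 1.35% and 2.84% at 4 wks. Before adjustment (p of 0.05 or less), 0 of the 10 genes passed at either 24 hrs time point, 1 at 1.5 wks (higher) and 5 at 4 wks (2 higher and 3 lower). The background at that limit was 7.88% of all genes higher and 8.89% lower at 24 hrs-5d, 1.63% and 1.23% at 24 hrs-10d, 1.38% and 1.12% at 1.5 wks, and 9.69% and 13.1% at 4 wks. With only the groups of a time point in the fit, 2, 3, 1 and 2 of the 10 genes passed that limit in the same order. No share of all genes is given for those fits, so these counts are not read as a result.

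The median log2 fold change (AggE over Ctrl) of the 10 genes was 0.09 at 24 hrs-5d, 0.03 at 24 hrs-10d, 0.17 at 1.5 wks and 0.03 at 4 wks, beside medians over all genes within 0.01 of 0. The genes did not share a direction. At 24 hrs-5d, at 24 hrs-10d and at 4 wks 6 were higher and 4 lower, and at 1.5 wks 8 were higher and 2 lower. With the slide as a fixed block 5 of these 8, Gsr (-0.31), Gpx1 (-0.30), Gclc (-0.25), Prdx1 (-0.14) and Txnrd1 (-0.01), turned from higher to lower at 1.5 wks, and Hmox1 turned from lower to 0.00. At 4 wks the same block turned Cat (-0.41), Txnrd1 (-0.34), Gclm (-0.08) and Gpx1 (-0.05) from higher to lower. Prdx1 (0.79) and Hmox1 (0.05) stayed higher there. The 95% confidence intervals lay within 2-fold in both directions for 9, 10, 8 and 8 of the 10 genes at the 4 time points in that order, and the largest change in either direction that they allowed for any gene was 2.08-fold (Gpx1, lower), 1.97-fold (Gpx1, lower), 2.49-fold (Cat, higher) and 3.75-fold (Gpx1, higher). These intervals take their spread from all 8 groups, also where the groups compared spread more or less than the others. The median size of the difference, without its sign, was 0.18, 0.18, 0.17 and 0.33 for the 10 genes and 0.10, 0.06, 0.06 and 0.10 over all genes. All genes include those near background, and genes of like signal were not compared.

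**Figure D1:**
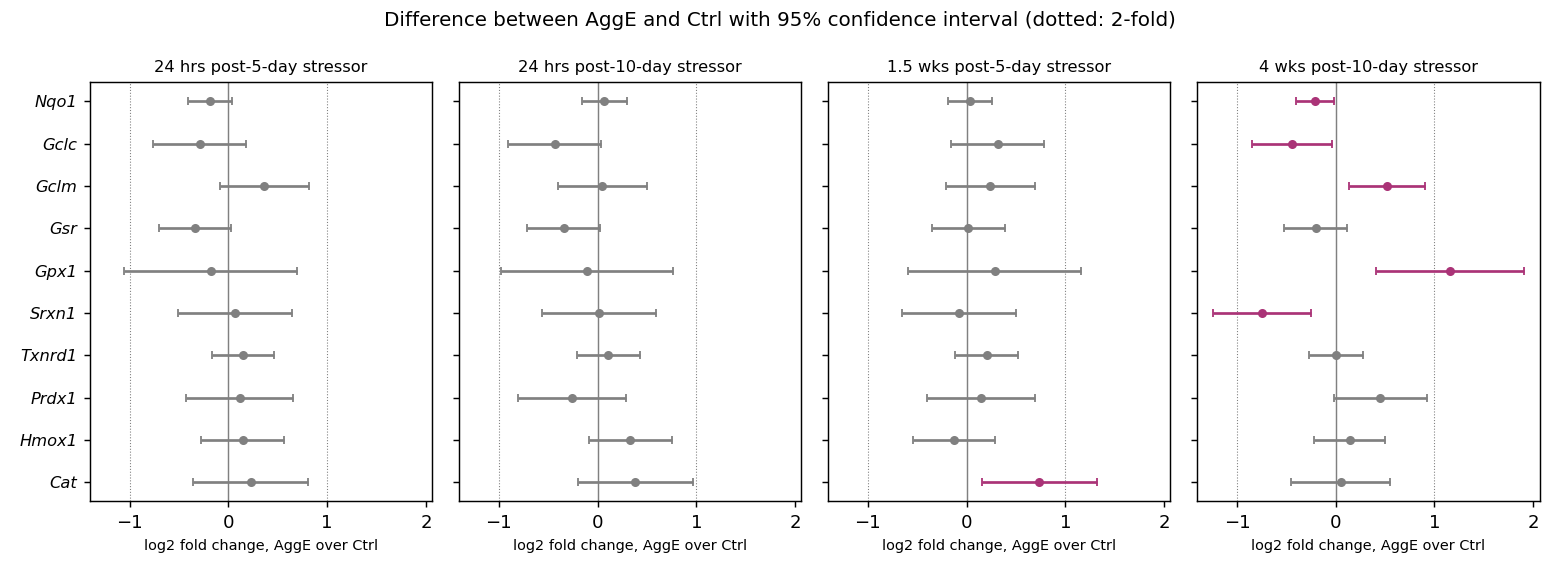
Each panel is a time point, the horizontal axis is the log2 fold change of AggE over Ctrl, points are fitted differences and bars 95% confidence intervals; purple marks an unadjusted p of 0.05 or less. At both 24 hrs time points all 10 intervals include 0, and at 4 wks 2 genes lie above 0 and 3 below it.

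**Figure D2:**
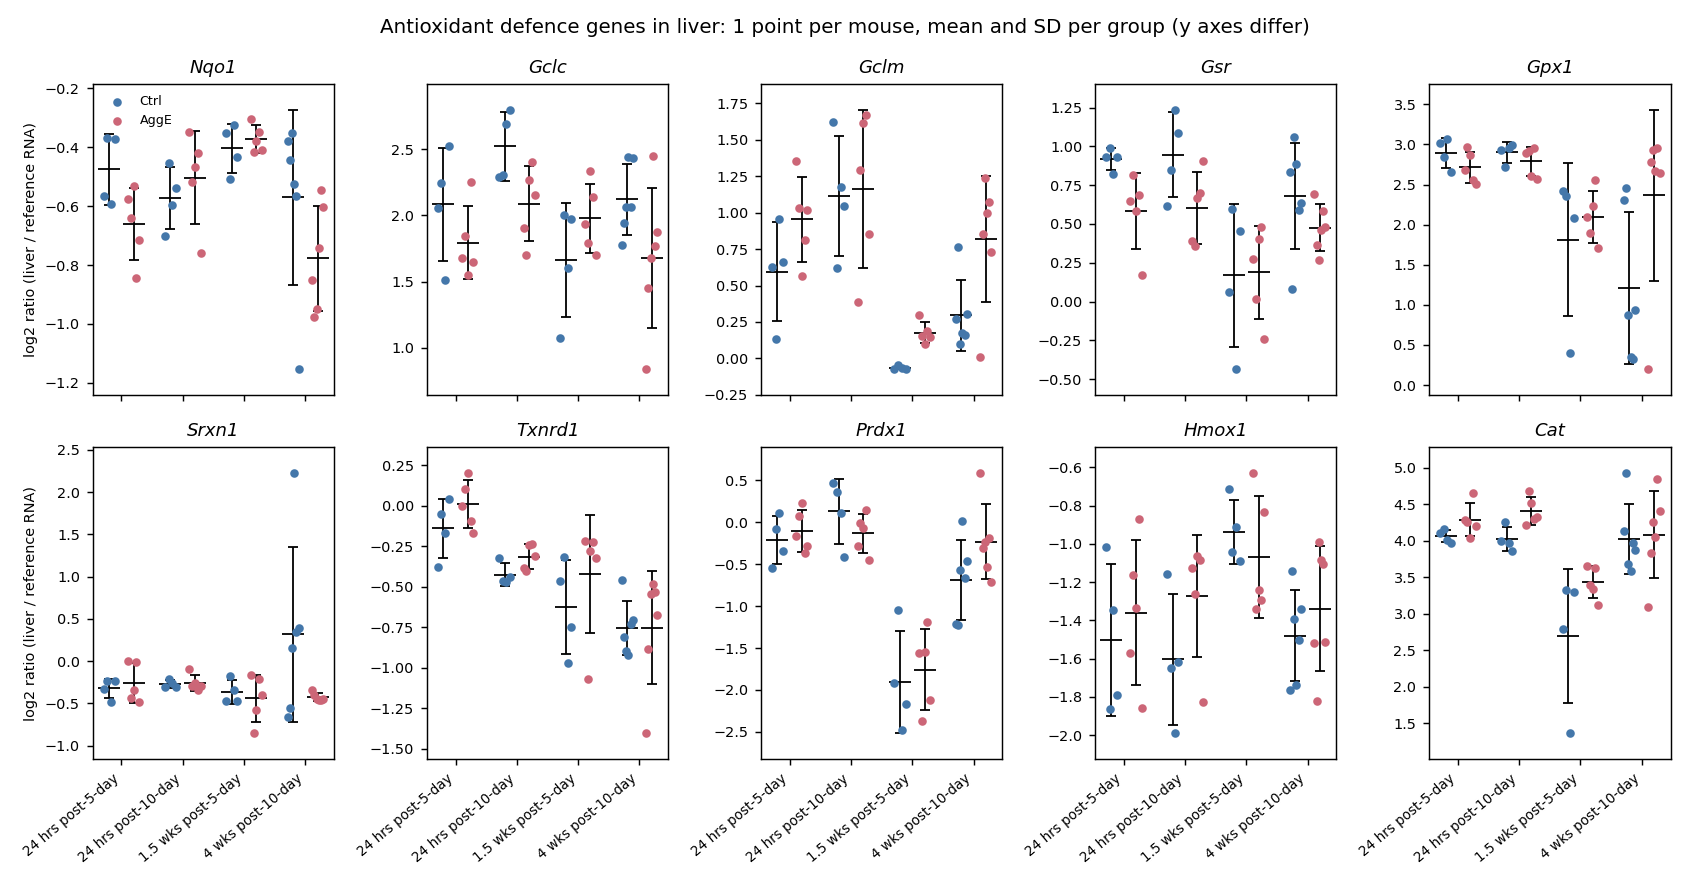
Each panel is a gene, the vertical axis is the log2 ratio of liver over reference RNA, points are mice (blue Ctrl, red AggE), and black bars are the mean and SD of a group. The group means of Prdx1 and Cat are lower at 1.5 wks than at the other time points in both AggE and Ctrl mice, and Gpx1 spreads from 0.19 to 2.96 at 4 wks.

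Among the genes of glutathione synthesis, the means of Gclc and Gclm lay on opposite sides of Ctrl at 4 wks. This did not hold with the slide as a fixed block, where Gclc stood at -1.09 and Gclm at -0.08. Within slide 9 both were lower too, Gclc at -1.48 and Gclm at -0.20. Gclm, the modifier subunit, ranged from 0.10 to 0.77 with a median of 0.22 in the 6 Ctrl mice and from 0.01 to 1.24 with a median of 0.93 in the 6 AggE mice. Of the AggE mice 1 lay below every Ctrl mouse and 4 lay above every Ctrl mouse, so that the groups overlapped. The log2 fold change was 0.52 (SE 0.19, a 1.43-fold difference), with an unadjusted p of 0.0100 and an adjusted p of 0.111 in the limma fit. At 24 hrs-5d the 4 Ctrl mice stood at 0.63, 0.14, 0.96 and 0.66 in Gclm and the 5 AggE mice at 1.35, 1.03, 0.56, 0.82 and 1.02, which overlapped. The difference of Gclm there was 0.36 (adjusted p = 0.435 in limma), ranging from 0.02 without normalization between arrays to 0.63 with the processed signals of Feature Extraction. At 24 hrs-10d it was 0.05 (adjusted p = 1.00), and turned to -0.12 without Ctrl mouse 2. Gclc, the catalytic subunit, ranged from 1.78 to 2.44 with a median of 2.06 in Ctrl mice and from 0.84 to 2.45 with a median of 1.72 in AggE mice. Its log2 fold change was -0.45 (SE 0.20), with an adjusted p of 0.196 in limma. On slide 9, which held 1 AggE and 3 Ctrl mice, the difference of Gclc was larger, at -1.48, as it was with the slide as a fixed block (-1.09, adjusted p = 0.0704 in limma), and with array weights it was smaller (-0.17, adjusted p = 0.676). The mean of Gclc was also below Ctrl at 24 hrs-5d (log2 fold change -0.29, adjusted p = 0.589 in limma, ranging from -0.57 without normalization between arrays to -0.14 without Ctrl mouse 4) and at 24 hrs-10d (-0.43, adjusted p = 1.00). At 1.5 wks its difference of 0.32 (adjusted p = 1.00 in limma) turned to -0.25 with the slide as a fixed block, so that no direction is given. At 24 hrs-10d the 5 AggE mice stood at 1.91, 1.70, 2.27, 2.41 and 2.16 in Gclc, and the 4 Ctrl mice at 2.29, 2.30, 2.69 and 2.80. Of the AggE mice 4 lay below every Ctrl mouse, and 1 lay among them.

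At 1.5 wks Gclm had the only groups of the 10 genes that did not overlap. The 4 Ctrl mice stood at -0.07, -0.05, -0.06 and -0.07, and the 5 AggE mice at 0.30, 0.15, 0.10, 0.19 and 0.15. Every AggE mouse lay above every Ctrl mouse, with a log2 fold change of 0.24 (95% interval -0.21 to 0.69, adjusted p = 1.00 in limma, whose spread is taken from all 8 groups). The size of the Gclm difference depended on the processing, from 0.09 with the slide as a fixed block to 1.08 with the processed signals of Feature Extraction (adjusted p = 0.688 in limma) and 1.14 with the log ratios of the series (adjusted p = 0.732), and was called in none. Over all genes 0.823% had groups that did not overlap at this time point. The signal was close to background, since Gclm was well above it in 2 of the 4 Ctrl and 3 of the 5 AggE mice. On slide 7 alone the AggE mouse exceeded the mean of the 3 Ctrl mice by 0.21.

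Gsr, which regenerates reduced glutathione with NADPH, was the gene nearest to a difference at 24 hrs-5d. The 4 Ctrl mice stood at 0.93, 0.99, 0.82 and 0.93 and the 5 AggE mice at 0.65, 0.82, 0.58, 0.69 and 0.17. No AggE mouse reached a Ctrl mouse, although the nearest pair both stood at 0.82 when rounded, and 7.4% of all genes had groups that did not overlap here. The log2 fold change was -0.34 (SE 0.18, unadjusted p = 0.0699, adjusted p = 0.343 in limma). The other probes of Gsr gave -0.48 (adjusted p = 0.147 in limma) and -0.24 (adjusted p = 0.323). At 24 hrs-10d the 3 probes gave -0.34, -0.18 and -0.14, with adjusted p-values of 1.00 in limma, and the groups of the first probe overlapped; they did not in 1.86% of all genes. All 3 probes of Gsr were thus lower on average in AggE mice at both 24 hrs time points, none past adjustment, and each time point's arrays lay on slides that held 1 of the 2 groups. At 1.5 wks Gsr differed by 0.02 (adjusted p = 1.00 in limma), and by -0.31 with the slide as a fixed block. At 4 wks it differed by -0.20 (adjusted p = 0.489), and by -0.02 with the slide as a fixed block, while its other probes gave -0.16 and 0.09.

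Gpx1, the selenium-dependent glutathione peroxidase of the cytosol, had the largest difference of any of the 10 genes, at 4 wks. Ctrl mice ranged from 0.33 to 2.46 with a median of 0.91, and AggE mice from 0.19 to 2.96 with a median of 2.72. The values fell apart within both groups. Of the AggE mice 5 stood between 2.65 and 2.96 and mouse 1 at 0.19, whereas Ctrl mice 1 and 2 stood at 2.31 and 2.46 and the other 4 between 0.33 and 0.93. The log2 fold change was 1.15 (SE 0.37, a 2.23-fold difference with a 95% interval of 1.32 to 3.75), with an unadjusted p of 0.00363 and an adjusted p of 0.0688 in limma. This fit takes its spread from all 8 groups. The SD of Gpx1 was 0.95 in Ctrl and 1.07 in AggE mice at 4 wks, beside 0.13 to 0.20 in the 24 hrs groups. The SE and interval are thus narrower at 4 wks, and wider at 24 hrs, than the spread of those groups alone would give. At both 24 hrs time points every group's Gpx1 values stayed between 2.51 and 3.07, and the log2 fold changes were -0.18 and -0.11. At 1.5 wks the log2 fold change of Gpx1 was 0.28 (adjusted p = 1.00 in limma), and it turned to -0.30 with the slide as a fixed block and to -0.19 without Ctrl mouse 3.

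These Gpx1 values differed between slides on average, and also between mice of slide 8. On slide 8 the 3 Ctrl mice averaged 1.88, from 0.88 to 2.46. On slide 9 the other 3 averaged 0.54, from 0.33 to 0.93, so that the 2 slides overlapped. AggE mouse 1, the one AggE mouse of slide 9, stood at 0.19. Within slide 9 the difference of AggE from Ctrl was thus -0.34, the opposite sign to the pooled 1.15, and with the slide as a fixed block of the fit it was -0.05 (unadjusted p = 0.903 in limma). Gclm values were 0.38 and 0.21 for the Ctrl mice of slides 8 and 9, -0.20 within slide 9 and -0.08 with the slide as a fixed block (unadjusted p = 0.794 in limma). The part of the slide in either result was not tested, since slides 10 and 11 held no Ctrl mouse of this time point. Leaving out AggE mouse 1 raised Gpx1 to 1.59 (adjusted p = 0.00153) and Gclm to 0.68 (adjusted p = 0.0155), both called. Gpx1 was also called without Ctrl mouse 1 (1.37, adjusted p = 0.0423) or Ctrl mouse 2 (1.41, adjusted p = 0.0178), and Gclm without Ctrl mouse 2 (0.61, adjusted p = 0.0493), all in limma.

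**Figure D3:**
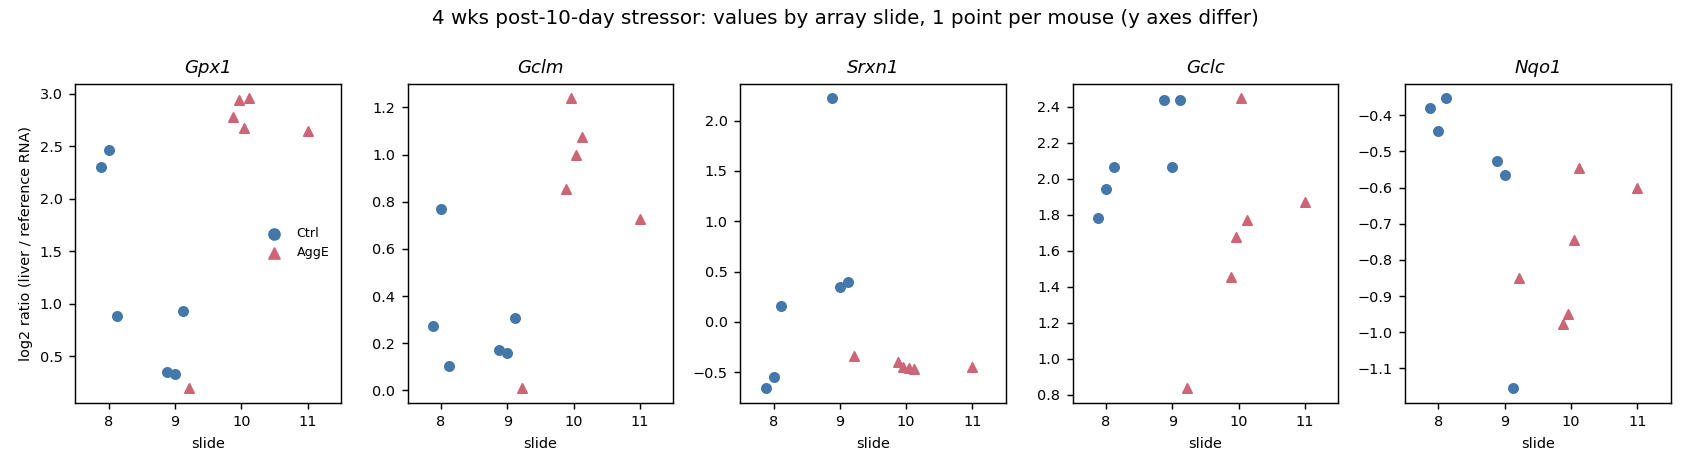
The horizontal axis is the slide of the array, the vertical axis the log2 ratio of liver over reference RNA, and points are the mice at 4 wks (blue circles Ctrl, red triangles AggE) for 5 genes. On slide 9, which both groups share, the AggE mouse lies below the Ctrl mice in Gpx1, Gclm, Srxn1 and Gclc; on slides 10 and 11, which hold AggE mice only, Gpx1 and Gclm are high.

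Cat, the peroxisomal catalase, passed the unadjusted limit at 1.5 wks only. The 4 Ctrl mice stood at 2.79, 3.32, 1.36 and 3.30 and the 5 AggE mice at 3.66, 3.40, 3.34, 3.63 and 3.12. The groups overlapped, and Ctrl mouse 3 lay far below the others. The log2 fold change was 0.74 (SE 0.29, a 1.67-fold difference), with an unadjusted p of 0.0147 and an adjusted p of 1.00 in limma. Without Ctrl mouse 3 the difference fell to 0.29 (unadjusted p = 0.247), and with the slide as a fixed block it was 0.32 (unadjusted p = 0.446). The same mouse was the lowest of its group in Gpx1, at 0.40 beside 2.08 to 2.42 in the other 3 Ctrl mice. The other differences of Cat were 0.23 at 24 hrs-5d, 0.38 at 24 hrs-10d and 0.05 at 4 wks, with adjusted p-values of 0.778, 1.00 and 0.937 in limma. Without normalization between arrays they were -0.26, 0.12 and -0.24, and at 4 wks Cat stood at -0.72 within slide 9 and -0.41 with the slide as a fixed block, so that its direction was not settled at 24 hrs-5d or 4 wks.

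Prdx1, an abundant peroxiredoxin, had the widest shift between time points, and it was shared by AggE and Ctrl mice. Its mean was -0.21 ± 0.29 (SD, n = 4) in Ctrl and -0.10 ± 0.25 (SD, n = 5) in AggE mice at 24 hrs-5d. At 1.5 wks it was -1.90 ± 0.61 (SD, n = 4) and -1.76 ± 0.48 (SD, n = 5). No mouse of either group at 1.5 wks, with -1.05 as the highest, reached the lowest mouse of either group at 24 hrs-5d, at -0.54. On the 3 slides that held mice of 1.5 wks beside mice of another time point, the 1.5 wks mice were lower in Prdx1 each time, by 1.15 beside AggE at 24 hrs on slide 6, by 1.16 beside Ctrl at 4 wks on slide 8 and by 1.66 beside AggE at 4 wks on slide 11. Cat was lower in the same 3 pairs of groups, by 0.66, 0.95 and 1.02, and Gclm by 0.82, 0.45 and 0.58. Hmox1 was higher each time, by 0.80, 0.34 and 0.17, Txnrd1 was lower by 0.07, 0.03 and 0.40, and the other 5 genes went both ways. No test between time points was run on these levels. Kupffer cell markers also had lower group medians at 1.5 wks (0.77 in Ctrl and 0.90 in AggE, beside 1.59 and 1.65 at 24 hrs-5d), with a mean log2 ratio over 10 markers from 0.47 to 1.33 in Ctrl and from 0.61 to 1.82 in AggE mice, beside 1.42 to 1.79 and 1.38 to 2.19 at 24 hrs-5d. The 5 endothelial markers had lower group medians too (0.74 and 1.00, beside 1.62 and 1.47), ranging from 0.36 to 1.05 and from 0.41 to 1.71 beside 1.50 to 1.74 and 1.17 to 1.83, whereas the 6 hepatocyte markers ranged from 5.26 to 5.90 and from 5.39 to 5.78 beside 5.56 to 5.76 and 5.21 to 6.12. The part of these cells in the levels of Prdx1, Cat and Gclm was not tested.

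Between AggE and Ctrl mice Prdx1 differed by 0.11, -0.26, 0.15 and 0.45 at the 4 time points in the order above, with adjusted p-values of 0.903, 1.00, 1.00 and 0.262 in limma. At 4 wks the 6 Ctrl mice ranged from -1.23 to 0.01 with a median of -0.62 and the 6 AggE mice from -0.71 to 0.59 with a median of -0.27. The groups overlapped. At this time point Prdx1 differed by 0.96 within slide 9, by 0.79 with the slide as a fixed block (adjusted p = 0.182 in limma) and by 0.23 without normalization between arrays (adjusted p = 0.590). The smaller differences of Prdx1 turned sign, to -0.04 at 24 hrs-5d with the log ratios of the series and at 1.5 wks to -0.14 with the slide as a fixed block and -0.31 within slide 7.

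In the thioredoxin arm, Txnrd1, the cytosolic thioredoxin reductase, had differences of 0.15, 0.11, 0.20 and 0.00 at the 4 time points, with adjusted p-values of 0.712, 1.00, 1.00 and 0.996 in limma, and its intervals allowed at most 1.38-fold, 1.34-fold, 1.43-fold and 1.21-fold higher levels in AggE mice. At 4 wks Txnrd1 stood at -0.62 within slide 9 and at -0.34 with the slide as a fixed block (adjusted p = 0.348 in limma). Srxn1, sulfiredoxin, differed by 0.06, 0.01 and -0.08 at the first 3 time points and by -0.75 (SE 0.25, unadjusted p = 0.00455, adjusted p = 0.0769 in limma) at 4 wks. There the 6 AggE mice lay close together, from -0.46 to -0.34 with a median of -0.45, and the 6 Ctrl mice ranged from -0.66 to 2.22 with a median of 0.25. The spread was thus on the Ctrl side, where mouse 4 stood at 2.22 and the other 5 between -0.66 and 0.39. The SD was 1.04 in Ctrl and 0.05 in AggE mice, whereas the SE of the fit takes its spread from all 8 groups. By slide, the Ctrl mice averaged -0.35 on slide 8 (from -0.66 to 0.15) and 0.99 on slide 9 (from 0.35 to 2.22), which held Ctrl mouse 4. Within slide 9 the difference of Srxn1 was -1.33, and with the slide as a fixed block it was -0.99 (unadjusted p = 0.0118, adjusted p = 0.126 in limma), both larger than the pooled value. Both include Ctrl mouse 4, and slide 9 held 1 AggE mouse. Without Ctrl mouse 4 the difference of Srxn1 was -0.36 (adjusted p = 0.152 in limma), and without Ctrl mouse 1 or 2 it was called, at -0.94 (adjusted p = 0.0315) and -0.92 (adjusted p = 0.0184). The other probes of Srxn1 gave -0.06 and -0.17 at 4 wks, with adjusted p-values of 0.872 and 0.468 in limma, so that the probes disagreed in size. Those probes were the dimmer ones, and both were well above background on no array at 24 hrs-5d.

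Nqo1, the quinone reductase often used as a readout of NRF2, was barely measured in these livers. It was well above background in 0 of 5 AggE and 1 of 4 Ctrl mice at 24 hrs-5d, in 1 of 5 and 1 of 4 at 24 hrs-10d and again at 1.5 wks, and in 6 of 6 and 5 of 6 at 4 wks. At 24 hrs-5d Nqo1 was thus not well above background on any AggE array, and its fitted difference of -0.19 (95% interval -0.41 to 0.04, adjusted p = 0.412 in limma) has no settled direction: it was 0.46 with the processed signals of Feature Extraction, 0.45 with the log ratios of the series and 0.03 without normalization between arrays. At 24 hrs-10d and 1.5 wks Nqo1 differed by 0.07 and 0.03 (adjusted p = 1.00 in limma for both), and the latter turned to -0.16 without background subtraction. At 4 wks Nqo1 ranged from -1.15 to -0.35 with a median of -0.48 in Ctrl mice and from -0.98 to -0.54 with a median of -0.80 in AggE mice. The groups overlapped, and the log2 fold change was -0.21 (SE 0.10, unadjusted p = 0.0365, adjusted p = 0.209 in limma). Nqo1 turned to 0.10 without normalization between arrays (adjusted p = 0.602), and was -0.05 in Cy-5 alone (adjusted p = 1.00). It was called without Ctrl mouse 6, the lowest (-0.32, adjusted p = 0.0199), and with array weights (-0.26, adjusted p = 0.0323), so that neither its direction nor its call was settled.

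Hmox1, the inducible heme oxygenase, differed by 0.14, 0.33, -0.13 and 0.14 at the 4 time points, with adjusted p-values of 0.810, 1.00, 1.00 and 0.718 in limma. At 24 hrs-5d Hmox1 turned to -0.08 with the processed signals of Feature Extraction and -0.16 with the log ratios of the series, and at 1.5 wks it was 0.05 within slide 7. Its widest difference, at 24 hrs-10d, came from Ctrl mice between -1.99 and -1.16 with a median of -1.63 and AggE mice between -1.82 and -1.07 with a median of -1.12, which overlapped. A rise of more than 1.68-fold lay outside its interval there. Of the 10 genes 0 had groups that did not overlap at 24 hrs-10d or at 4 wks, beside 1.77% of all genes at 4 wks.

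Whether the response changed with the number of sessions or with rest was asked of the differences between time points. Of the 10 genes 0 were called in any of the 3 differences after adjustment, beside 0.0353% of all genes for 24 hrs-5d minus 24 hrs-10d, 0.094% for 24 hrs-5d minus 1.5 wks, and 0.0764% for 24 hrs-10d minus 4 wks. Before adjustment the counts were 0, 0 and 1, beside 6.25%, 7.58% and 10% of all genes. That 1 gene was Gpx1, whose difference at 24 hrs-10d was lower than that at 4 wks by a log2 difference of -1.26 (95% interval -2.42 to -0.11, adjusted p = 0.534 in limma). It rests on the Gpx1 values at 4 wks, which differed between slides on average and between mice of the same slide. The intervals of these differences stayed within 2-fold for 8, 7 and 5 of the 10 genes.

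Several of these genes varied more between mice of 1 group than most genes did. The SD within groups, over all 39 arrays, was 0.67 for Gpx1, 0.44 for Cat and for Srxn1, 0.42 for Prdx1 and 0.36 for Gclc, beside a median of 0.17 over all genes, and these lay at the 99.1, 95.3, 95.2, 94.3 and 91.4 percentiles. Gclm lay at 90.3, Hmox1 at 88.1, Gsr at 83, Txnrd1 at 74.5 and Nqo1, the gene of low signal, at 47.7. All genes include those near background, and the part of signal level and slide in these ranks was not tested. Within groups Gpx1 went with Cat (r = 0.77 over 39 arrays) and with Txnrd1 (r = 0.62), and against Srxn1 (r = -0.44). These values describe arrays that share slides and the reference RNA, and no p is given for them. Gclc and Gclm, whose products form 1 enzyme, had r = 0.19.

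The other genes of the pathway, in 7 lists with 80 measured genes, gave 2 calls at 24 hrs-5d, 1 at 24 hrs-10d, 0 at 1.5 wks and 3 at 4 wks, all lower in AggE mice. These counts stand beside the shares of all genes called lower (1.48%, 0.00588%, 0% and 2.84%) and are not read as a result about the lists. Of the 9 NRF2 regulators 1 was called in any comparison. Sqstm1, the autophagy receptor p62 that also binds KEAP1, fell at 4 wks by a log2 fold change of -0.53 (adjusted p = 0.0354 in limma). Nfe2l2 itself differed by -0.18, -0.09, -0.01 and -0.05 at the 4 time points, with adjusted p-values from 0.561 to 1.00, and Keap1 by 0.21, -0.08, -0.04 and 0.47, the last with an adjusted p of 0.0631 in limma. The median of the list was -0.15 at 4 wks, beside 0.01 over all genes.

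Of the 6 measured NADPH supply genes, which feed reduction by Gsr and Txnrd1, Me1 was called at both 24 hrs time points and the other 5 at none. Me1, the cytosolic malic enzyme, which is also a lipogenic gene, averaged 0.66 in Ctrl and 0.02 in AggE mice at 24 hrs-5d. It averaged 1.05 and 0.07 at 24 hrs-10d. The log2 fold changes were -0.64 (adjusted p = 0.0438 in limma) and -0.98 (adjusted p = 0.00884), with no overlap of the groups at either point. At 1.5 wks and 4 wks the differences of Me1 were 0.06 and 0.01.

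Among the 24 measured other NRF2 target genes, 19 had lower and 5 higher means in AggE than in Ctrl mice at 24 hrs-5d, with a median of -0.32 beside 0.00 over all genes, and 1 passed adjustment. That was Blvrb, biliverdin reductase B, which fell by 0.62 on the log2 scale (adjusted p = 0.00726 in limma) with no overlap of the groups. Several of the 24 genes, such as those of the Gsta and Gstm families, are paralogs whose probes can share signal. The counts are thus not of 24 separate measurements. The AggE arrays of this time point had 15.3% to 27.8% of probes well above background, with a median of 22.2%, and the Ctrl arrays 24.8% to 30.5%, with a median of 29.4%. The 2 groups also shared no slide here. The part of signal and slide in the list's shift was not tested. At 24 hrs-10d 16 of 24 were lower, with a median of -0.19 and 0 calls. At 4 wks 18 of 24 were lower, with a median of -0.10, and Cyp2a5, the coumarin hydroxylase, was called at -1.05 (adjusted p = 0.0364 in limma). Of the 16 other glutathione genes, the 17 other thioredoxin and peroxiredoxin genes and the 3 superoxide dismutases 0 were called at any time point. Under alternatives the lists also reached higher counts than those given. The other NRF2 target genes ranged from 0 to 4 calls at 24 hrs-5d, 0 to 1 at 24 hrs-10d and 0 to 5 at 4 wks, the NRF2 regulators from 0 to 3 at 4 wks, and the 7 genes that the study placed under the NRF2 response from 0 to 5 at 4 wks. The glutathione list reached 4 calls at 4 wks and 1 at 24 hrs-5d, the thioredoxin and peroxiredoxin list 1 at each of these points, and the dismutases 0. Sod1 differed by -0.36 at 4 wks (adjusted p = 0.188 in limma) and Sod2 by -0.20 (adjusted p = 0.450).

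The 7 genes that the study placed under the NRF2 response at 4 wks, which include Gclm, were chosen on these samples, so that their direction is not independent evidence. At 4 wks 6 had higher and 1 lower means in AggE mice, with a median of 0.54. The mean log2 ratio over the 7 genes ranged from -0.60 to 0.60 with a median of -0.39 in the 6 Ctrl mice and from -0.78 to 0.59 with a median of 0.51 in the 6 AggE mice, so that the groups overlapped and the lowest mouse was an AggE mouse. The 1 call after adjustment was the lower gene, Jun, a subunit of the AP-1 transcription factor, at -0.58 (adjusted p = 0.0236 in limma). Ftl1, the ferritin light chain, and Ephx1, the microsomal epoxide hydrolase, stood at 1.27 and 0.72 with adjusted p-values of 0.0775 and 0.0604. At the other time points the medians were -0.07, -0.01 and -0.01, with 0 calls.

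The 6 calls depended on the processing, in checks added after the data were seen. With the slide as a random block each call was lost (adjusted p from 0.110 to 1.00 in limma), with log2 fold changes of -0.60 and -0.95 for Me1 at 24 hrs-5d and 24 hrs-10d, -0.69 for Blvrb, -0.55 for Sqstm1, -1.21 for Cyp2a5 and -0.56 for Jun. With the slide as a fixed block at 4 wks the call of Cyp2a5 was kept (-1.59, adjusted p = 0.0389) and those of Sqstm1 and Jun were not. Over all alternatives, left-out arrays included, the call of Me1 was lost in 16 of 24 at 24 hrs-5d and 9 of 24 at 24 hrs-10d, that of Blvrb in 3 of 24 (Cy-5 alone, processed signals, and the slide as a random block), of Sqstm1 in 16 of 28, of Cyp2a5 in 14 of 28 and of Jun in 13 of 28. Cyp2a5 ranged from -0.21 with the processed signals (adjusted p = 0.956) and -0.35 without background subtraction to -1.73 without normalization between arrays, and Jun from -0.16 without normalization between arrays (adjusted p = 0.713) to -1.01 with the log ratios of the series (adjusted p = 0.114). Leaving out 1 array ended the call of Me1 in 5 of 9 fits at 24 hrs-5d (Ctrl mouse 1, 2 or 4, AggE mouse 1 or 4; adjusted p up to 0.208) and in 2 of 9 at 24 hrs-10d (Ctrl mouse 1, AggE mouse 1). It ended that of Sqstm1 in 7 of 12 (AggE mouse 2, 3 or 5, Ctrl mouse 3, 4, 5 or 6), of Cyp2a5 in 7 of 12 (AggE mouse 2 or 3, Ctrl mouse 1, 3, 4, 5 or 6), of Jun in 4 of 12 (AggE mouse 2 or 3, Ctrl mouse 3 or 4) and of Blvrb in 0 of 9.

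**Figure D4:**
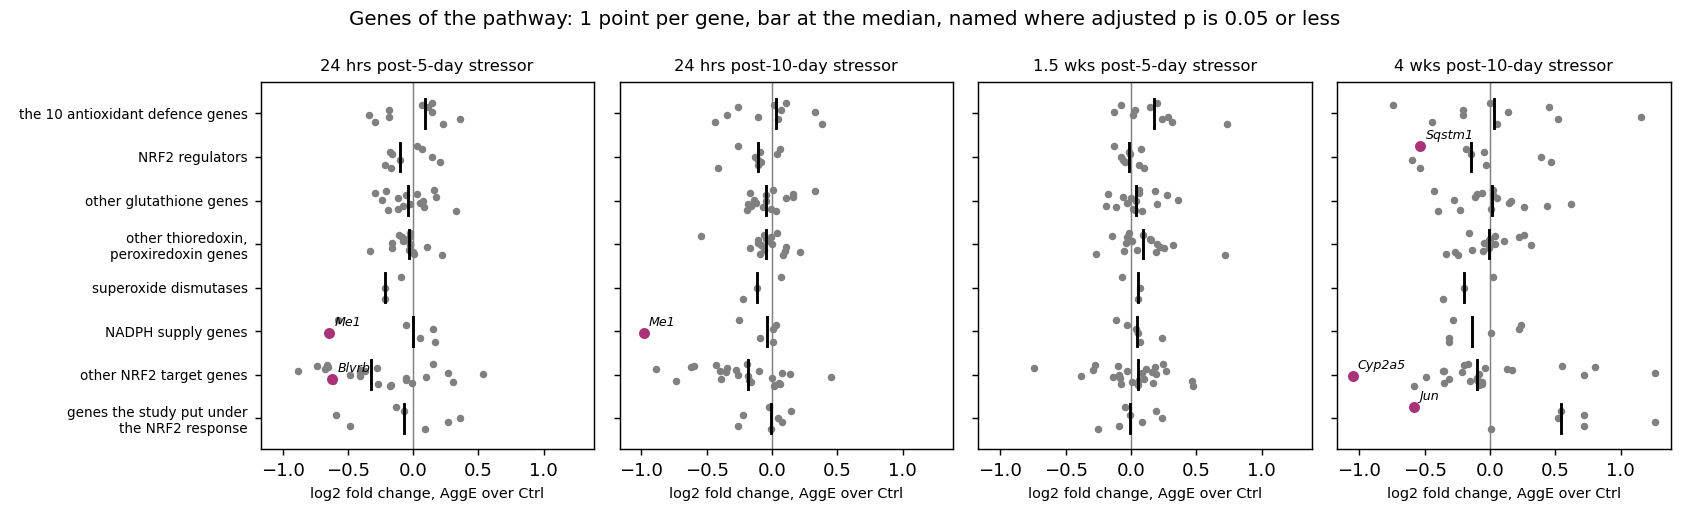
Each panel is a time point, each row a gene list, the horizontal axis the log2 fold change of AggE over Ctrl, points are genes, black bars medians, and named purple points have an adjusted p of 0.05 or less. Me1 at both 24 hrs time points, Blvrb at 24 hrs-5d, and Sqstm1, Cyp2a5 and Jun at 4 wks are the only named points, all below 0.

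Of the 5 biliary markers 3 had higher and 2 lower means in AggE mice at 24 hrs-5d, with a median of 0.02, and 1 of them, Spp1, was called (log2 fold change 1.28, adjusted p = 0.00408 in limma). At 4 wks all 5 biliary means were lower, with a median of -0.23, and Epcam was called (-0.67, adjusted p = 0.0238), although it was well above background in 0 of 6 AggE and 1 of 6 Ctrl mice. Of the 6 hepatocyte markers 1 mean was higher and 5 were lower at 4 wks, with a median of -0.26, and the 1 called was the higher one, the urea cycle enzyme Ass1 (1.24, adjusted p = 0.0453). At 24 hrs-10d the means of all 10 Kupffer cell markers were higher in AggE mice, by a median of 0.38, with 0 called. At 4 wks 4 of the Kupffer cell markers were higher and 6 lower, with a median of -0.12 and 2 lower before adjustment. Of the 9 leukocyte markers 4 were higher and 5 lower at 4 wks, with a median of -0.20, and 3, Ptprc (-0.42), Cd79b (-0.33) and Coro1a (-0.29), were lower before adjustment, with 0 of either list called (smallest adjusted p of 0.0593 in limma, for Cd5l). Before adjustment 13.1% of all genes were lower at 4 wks. The medians of the neutrophil, stellate, endothelial and erythroid markers at 4 wks were -0.08, -0.13, 0.03 and 0.07, with 0 called. The part of these cells in the results on the 10 genes was not tested.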

How the data were processed

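Liver RNA of 39 mice (Cy-5) was hybridized with reference RNA (Cy-3), without a dye swap, on Agilent mouse arrays. The authors deposited median spot and local background intensities read by Feature Extraction (11.5.1.1 per the file headers, while the methods name an earlier version), processed intensities that are dye-normalized within the array, and log10 ratios made from them, which the deposited series-wide file repeats in rounded form, with other 0 or 1 marks for outlier, saturated and well-above-background spots. Groups follow the source labels, which the titles of all 5 AggE mice and 1 Ctrl mouse at 1.5 wks, and the descriptions of the 5 AggE mice 24 hrs after the 5-day stressor, contradict in part on the regimen. The median intensities were corrected with normexp (offset 50), loess-normalized within and quantile-normalized between arrays in limma 3.58.1 (R 4.3.3, data.table version 1.17.8, statmod 1.5.0). Outlier spots (0.295% to 1.46% per array) were set to missing and controls left out. Symbols came from RefSeq accessions of 25903 probes, for names only; 1528 of them found no symbol and 245 probes had several spots, which were averaged.

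One limma fit held the means of 8 groups, and p-values were adjusted over all 25903 probes. The genes and lists were chosen with earlier results of these data known. Text names the 10 genes in all comparisons, called list genes up to 3 per list and comparison, Nfe2l2, Keap1, Sod1 and Sod2, and markers beside a result; Ftl1 and Ephx1 were named after their values were seen. The fit was tested on simulated data. Alternatives changed the background correction, scaling, probe filter, fit, blocks, call rule and arrays. Replicate numbers did not pair the mice (correlation of deviations from -0.448 to 0.502 in 18 pairs, over 0.1 in 5), so no pairing entered the fit. The number of arrays limits the precision.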

Additional observations from a re-analysis of the deposited data

Results flagged for a closer look

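A mouse stood apart from its group in 7 of the 80 sets of 1 gene in 1 group, by Dixon's test of the gap to the nearest mouse over the range of the group, which chance passes in about 1 of 20 sets. At 4 wks these were Gpx1 in AggE mouse 1 (0.19, beside 2.65 to 2.96 in the other 5), Gclm in Ctrl mouse 2 (0.77, beside 0.10 to 0.31), Srxn1 in Ctrl mouse 4 (2.22, beside -0.66 to 0.39) and Nqo1 in Ctrl mouse 6 (-1.15, beside -0.56 to -0.35). At 1.5 wks they were Gpx1 in Ctrl mouse 3 (0.40, beside 2.08 to 2.42) and Txnrd1 in AggE mouse 2 (-1.07, beside -0.32 to -0.22), the latter scanned on the other day than most arrays of its group. At 24 hrs-10d it was Hmox1 in AggE mouse 5 (-1.82, beside -1.26 to -1.07). No cause was tested. In 0 of the 10 genes did the effects of 2 time points differ after adjustment in limma.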

How the results depend on the processing

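The count of called genes stayed at 0 of 10 at 24 hrs-5d, 24 hrs-10d and 1.5 wks, and in the differences between time points, under each alternative run, with 1 exception. With calls set by a 2-fold change and the p before adjustment, 1 gene (Gpx1) was called in the difference of 24 hrs-10d minus 4 wks, and 1 (Gpx1) at 4 wks. At 4 wks 3 genes (Gclm, Gpx1 and Nqo1) were called with array weights, 1 (Gpx1) among probes well above background only, and 0 to 3 when 1 array was left out. With the slide as a fixed block, which could be fitted at 1.5 wks and 4 wks only, and with the replicate block, which is no pairing, 0 genes were called, nor were any at 1.5 wks without the 2 arrays of the other scan day, an alternative chosen after seeing the data. The count before adjustment, recomputed after the data were seen, ranged from 0 to 2, 0 to 3, 0 to 3 and 2 to 6 at the 4 time points in the order of the report, and with the replicate block it was 0, 1, 1 and 5. Of 1080 values under alternatives other than leaving out an array, 79 changed sign, 4 became called in the same direction and 0 in the opposite one, and of 960 with 1 array left out 61, 8 and 0. Aquantile gave the ratios of no normalization between arrays. Nqo1 was limited by its low signal over background.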
